A study of Homo sapiens with 12 samples.

Results

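A set of 36 genes of cholesterol and fatty acid metabolism was followed in FDX2-deficient ovarian cancer cells. They were chosen by name, out of 58735 gene identifiers in the count table, from the pathways that make, sense, move and export sterols and that build and desaturate fatty acids. They comprise 18 genes of sterol synthesis, 5 of SREBP regulation, 2 of sterol transport (STARD4 and NPC1), 3 of sterol efflux and other LXR targets (ABCA1, ABCG1 and MYLIP), 7 of fatty acid synthesis and 1 of glycerolipid synthesis (LPIN1). After a filter on low counts 35 of the 36 were tested. The exception was ABCG1, a sterol exporter, with 0 counts in all 12 libraries, which allows up to 3 counts per library.

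The RNA was that of FDX2-iKO cells, derived from the ES2 line of human ovarian cancer, in which the endogenous FDX2 gene, encoding a mitochondrial ferredoxin of iron-sulfur cluster assembly, is knocked out and an editing-resistant FDX2-HA is expressed only in the presence of doxycycline (Doxy). All 4 conditions carried this knockout and transgene. At 20% O2, cells were cultured for 6 days with Doxy (20% O2 + Doxy) or without it (20% O2 wo Doxy). For the other conditions cells were precultured for 4 days at 20% O2 and then kept for 3 days at 3% O2, again with Doxy (3% O2 + Doxy) or without it (3% O2 wo Doxy), and 3 libraries were made per condition. The cells are an edited clonal line, so the replicates do not sample clones. FDX2 loss and the absence of Doxy cannot be told apart here, nor can 3% O2 and the longer culture. In bulk RNA, a lower level from fewer expressing cells and one from less RNA per cell cannot be told apart either.

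Cholesterol is built from acetyl-CoA through the mevalonate pathway, squalene and a series of sterol intermediates. The transcription factors SREBP-1 and SREBP-2, encoded by SREBF1 and SREBF2, switch on these genes when sterols in the endoplasmic reticulum run low: SCAP escorts them to the Golgi for cleavage, and the INSIG proteins hold SCAP back when sterols are plentiful. SREBP-1 also drives fatty acid synthesis, while the liver X receptors (LXR), activated by oxysterols, raise sterol exporters such as ABCA1 and also SREBF1.

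Counting on genes gave between 24958386 and 34313637 counts per library. FDX2 itself had only 2 to 13 counts per library and could not be used to check the labels. Of the epithelial and ovarian carcinoma markers, KRT7, KRT8, KRT18, VIM, CDH2 and PAX8 were measured in every condition, whereas EPCAM, CDH1 and WT1 stayed under 0.3 CPM (counts scaled to a common, TMM-normalised library total) on average in every condition. The summed level of 4 leukocyte markers was at most 0.317 CPM in any library. Of 3 endothelial markers, PECAM1 and VWF had at most 6 counts per library. CDH5 carried the sums of 22.1 to 28.5 CPM at 20% O2 + Doxy, 26.2 to 27.0 at 20% O2 wo Doxy, 28.7 to 36.8 at 3% O2 + Doxy and 40.1 to 51.6 at 3% O2 wo Doxy. Of 3 fibroblast markers, DCN and LUM had at most 2 counts per library. PDGFRA carried the sums, in the same order 3.39 to 3.85, 8.67 to 10.1, 3.72 to 4.47 and 6.88 to 8.36 CPM. CDH5 rose after FDX2 loss at 3% O2 (0.49) and between the oxygen levels without Doxy (0.77), as log2 fold changes. PDGFRA rose after FDX2 loss at 20% O2 (1.40) and at 3% O2 (0.86) and fell between the oxygen levels without Doxy (-0.35), all in the edgeR test. The part of either in the results was not tested. The hypoxia markers CA9, PDK1, BNIP3, LDHA and NDRG1 rose at 3% O2 with and without Doxy in the edgeR quasi-likelihood test after Benjamini-Hochberg adjustment. In 3 libraries, replicate 1 of 20% O2 + Doxy, replicate 3 of 3% O2 + Doxy and replicate 2 of 3% O2 wo Doxy, GC-rich genes read high: genes of 60% GC exceeded those of 40% GC by 0.36 to 0.39 on the log2 scale relative to the mean over libraries, against -0.30 to 0.11 in the others. Several members are GC-rich, with FASN at 65.3% GC, and results that rest on these libraries are given with and without them.

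To show which regulatory letters these genes share, promoter windows of 300 bases (250 before the annotated start and 50 from it onward) were taken from RefSeq (GRCh38.p14), where 31 of the 36 members had 43 windows. The windows were searched on both strands for 3 motifs: CCAAT, the box bound by NF-Y, a factor known to act with SREBP at sterol-regulated promoters; TCACNCCAC, the core of the sterol regulatory element; and the DR4 element of LXR, a direct repeat of AGGTCA with any 4 bases between. FDFT1, SQLE, ACAT2, ABCG1 and FASN had no window. Printed here are the stretches of 7 windows that lie outside the exons annotated for the gene in GENCODE release 29, 5′ to 3′ on the gene's strand, with motif matches in capitals. The 7 were picked by hand, so they do not show how boxes and changes go together over the members. NSDHL, MSMO1 and DHCR7, late steps of sterol synthesis, and STARD4 and SCD, whose levels fell most, carry 2 or more boxes. SREBF2 holds the only sterol regulatory element core among the members, and ABCA1, which moved the other way, has no match. Not printed are SREBF1 (log2 fold change -0.80), SCAP (-0.56), LPIN1 (-0.50) and FADS1 (-0.19), which fell after FDX2 loss at 20% O2 and held no box. The DHCR7 stretch lies in an intron of the gene as annotated in that release, while the other stretches lie upstream of the gene.
NSDHL promoter, chrX:152830813-152830966, plus strand: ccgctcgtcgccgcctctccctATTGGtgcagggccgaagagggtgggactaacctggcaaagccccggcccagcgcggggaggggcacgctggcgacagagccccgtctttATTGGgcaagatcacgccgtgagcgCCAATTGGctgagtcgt
MSMO1 promoter, chr4:165327419-165327622, plus strand: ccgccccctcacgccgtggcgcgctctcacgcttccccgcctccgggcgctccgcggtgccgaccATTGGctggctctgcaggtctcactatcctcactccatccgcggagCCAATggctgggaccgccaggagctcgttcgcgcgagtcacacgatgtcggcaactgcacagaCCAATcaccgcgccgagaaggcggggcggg
DHCR7 promoter, chr11:71448436-71448643, minus strand: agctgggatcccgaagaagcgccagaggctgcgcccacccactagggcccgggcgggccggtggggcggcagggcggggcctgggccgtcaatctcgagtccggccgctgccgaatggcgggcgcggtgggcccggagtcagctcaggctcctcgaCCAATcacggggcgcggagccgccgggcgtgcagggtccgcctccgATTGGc
STARD4 promoter, chr5:111512591-111512785, minus strand: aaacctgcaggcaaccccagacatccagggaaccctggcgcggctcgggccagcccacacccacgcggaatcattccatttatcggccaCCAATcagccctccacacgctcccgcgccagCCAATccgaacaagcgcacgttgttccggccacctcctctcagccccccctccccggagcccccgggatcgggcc
SCD promoter, chr10:100346983-100347123, plus strand: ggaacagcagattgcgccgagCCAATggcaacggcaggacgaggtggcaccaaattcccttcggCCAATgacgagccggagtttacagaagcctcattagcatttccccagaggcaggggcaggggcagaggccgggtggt
SREBF2 promoter, chr22:41832855-41833078, plus strand: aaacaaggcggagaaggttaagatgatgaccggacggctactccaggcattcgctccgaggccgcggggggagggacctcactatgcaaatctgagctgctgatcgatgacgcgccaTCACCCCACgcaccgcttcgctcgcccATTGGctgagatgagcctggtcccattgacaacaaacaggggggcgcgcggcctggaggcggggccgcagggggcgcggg
ABCA1 promoter, chr9:104928238-104928405, minus strand: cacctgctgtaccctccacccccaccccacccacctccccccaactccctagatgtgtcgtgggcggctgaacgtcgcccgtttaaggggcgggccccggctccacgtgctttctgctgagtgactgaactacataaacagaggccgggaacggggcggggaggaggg

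The CCAAT box, which overlaps neither of the other motifs, was found in 34.6% of all 35116 promoter windows and in 58.1% of the members' windows. Among windows of sterol synthesis genes it was present in 15 of 20 (75%), and 55% of them held 2 or more boxes, against 10.8% of all windows. The fatty acid genes had it in 6 of 10 windows. The sterol regulatory element core was found in 1.13% of all windows and in 1 of the 43, that of SREBF2, where it begins 133 bases before the start. The DR4 element was found in 0.0199% of all windows and in none of the 43. No match says only that these letters are not in the window.

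**Figure D1:**
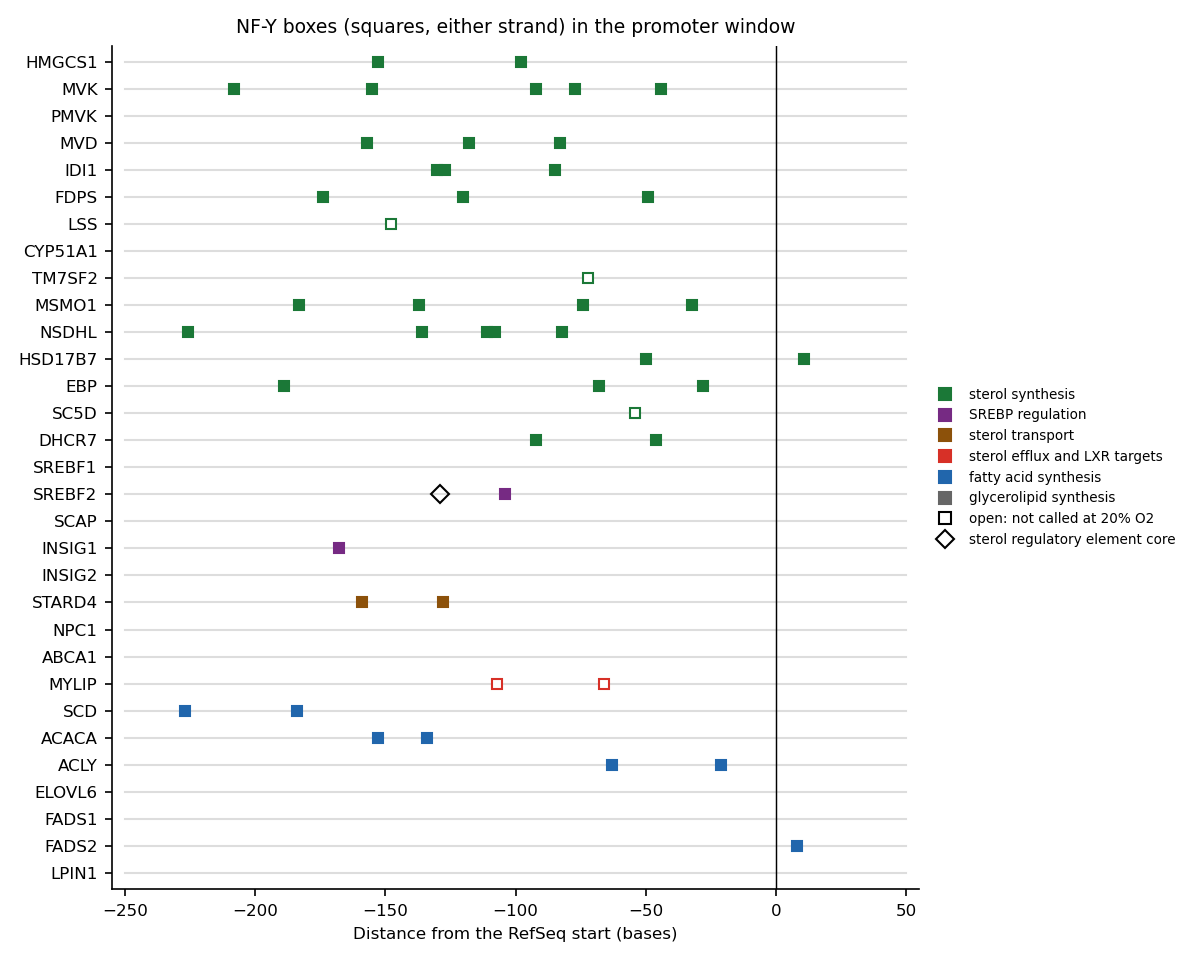
Positions of NF-Y boxes (CCAAT on either strand, squares) and of the sterol regulatory element core (diamond) in the promoter window with most boxes of each of 31 members, in bases from the RefSeq start, coloured by gene group. Filled squares mark genes called changed after FDX2 loss at 20% O2 and open squares genes not called. The sterol synthesis genes with 2 to 5 boxes are all filled, but MYLIP has 2 boxes and is open, and FADS1, SREBF1, SCAP and LPIN1 fell and have none. The split was noticed after the values were seen and was not tested.

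FDX2 loss at 20% O2 lowered most of the set. In cells without Doxy 25 of the 35 tested members fell and 2 rose, NPC1 and ABCA1, in the quasi-likelihood test of edgeR (Benjamini-Hochberg adjusted p under 0.05, over all 16891 tested genes). Among all tested genes 35.3% were called changed, 17.6% higher and 17.7% lower. The median log2 fold change of the members was -0.48, beside 0.01 over all tested genes, and no member changed 2-fold. The 25 that fell were 13 sterol synthesis genes, 4 of the 5 SREBP regulators, 6 of the 7 fatty acid genes, STARD4 and LPIN1. PMVK, LSS, CYP51A1, TM7SF2, SC5D, INSIG2, MYLIP and ELOVL6 did not pass the test.

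**Figure D2:**
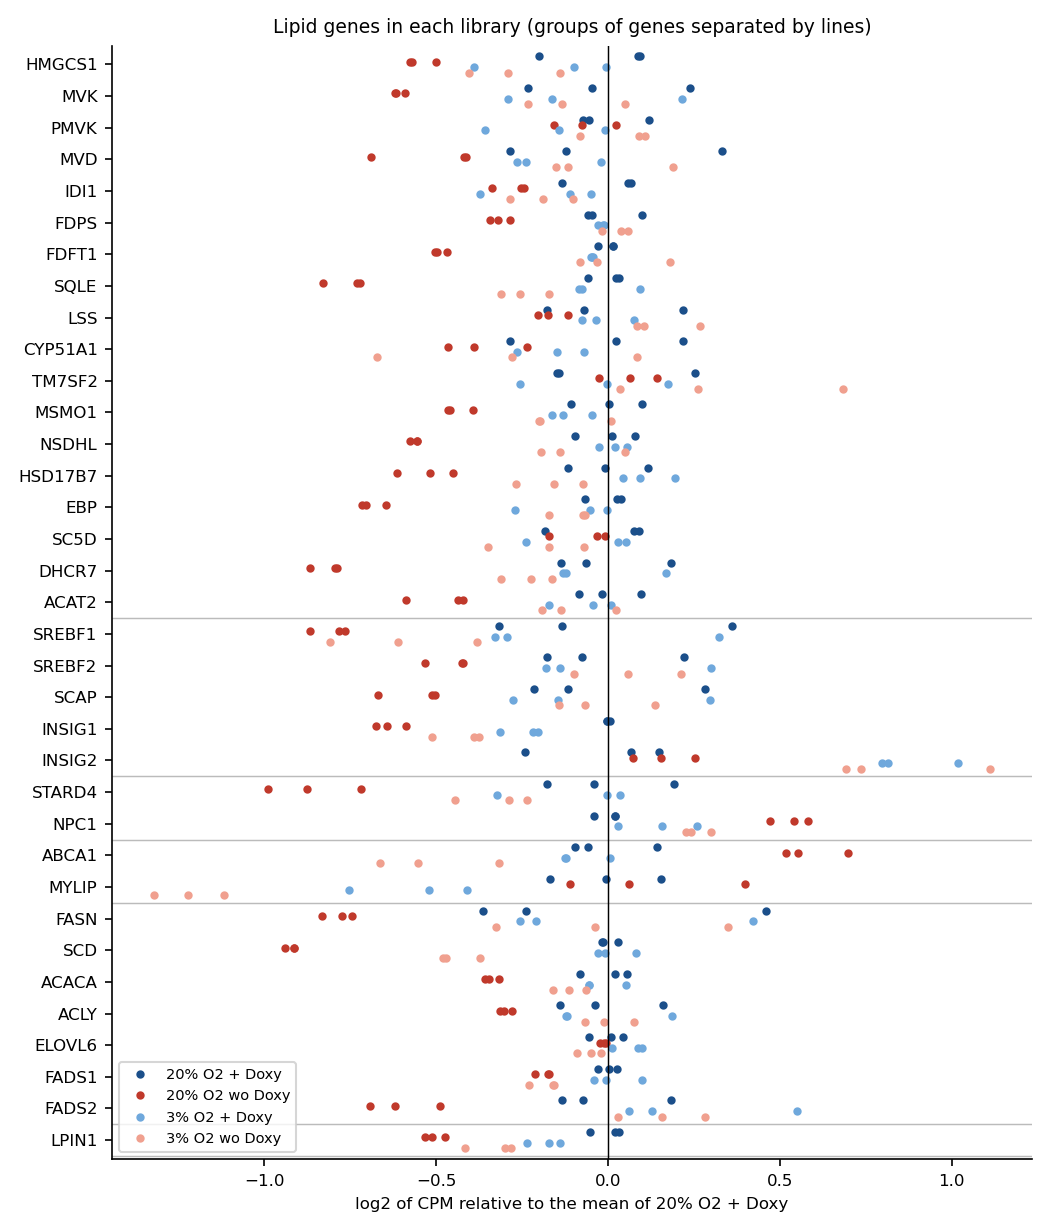
Level of each of the 35 tested members in each of the 12 libraries, as log2 of CPM relative to the mean of 20% O2 + Doxy, with 1 point per library and horizontal lines between gene groups. The 20% O2 wo Doxy points lie left of the 20% O2 + Doxy points for most genes and right of them for NPC1 and ABCA1, while for most genes that fell, SQLE, EBP and DHCR7 among them, the 3% O2 wo Doxy points lie nearer to 0.

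Levels are CPM, given in the order of replicates 1 to 3. DHCR7 encodes 7-dehydrocholesterol reductase, the last enzyme of the Kandutsch-Russell branch of cholesterol synthesis. Its level was 929, 783 and 744 CPM at 20% O2 + Doxy and 472, 474 and 449 CPM at 20% O2 wo Doxy, so the groups did not overlap, as for 52.3% of all tested genes in either direction. The log2 fold change was -0.82 ± 0.10 (SE, n = 3 per condition, adjusted p = 7.6e-05 by the edgeR quasi-likelihood test). DHCR7 was also the highest of the members per kilobase of exon, at 197 CPM per kb with Doxy at 20% O2, ahead of FASN at 119 and ACLY at 82.9 CPM per kb.

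SQLE, squalene epoxidase, is the first oxygen-requiring and a rate-controlling step of sterol synthesis. It was measured at 76.0, 80.9 and 80.3 CPM with Doxy and at 48.0, 44.5 and 47.6 CPM without it at 20% O2 (log2 fold change -0.76 ± 0.06, adjusted p = 7.2e-06 by the edgeR quasi-likelihood test). EBP, the sterol isomerase that shifts the double bond of the ring, was at 37.2, 37.5 and 34.8 CPM with Doxy and at 22.2, 23.3 and 22.4 CPM without it (-0.69 ± 0.07, adjusted p = 3.6e-05 by the same test). NSDHL, a dehydrogenase that removes the C4 methyl groups, was at 41.4, 43.3 and 38.4 CPM with Doxy and at 28.0, 27.9 and 27.5 CPM without it (-0.56 ± 0.07, adjusted p = 0.00011 by the same test). All 3 enzymes read lower in each library without Doxy than in any with it. MVK, mevalonate kinase, was at 22.5, 18.4 and 16.2 CPM with Doxy and at 12.4, 12.6 and 12.4 CPM without it (-0.61 ± 0.14, adjusted p = 0.0070 by the same test). Replicate 1 of 20% O2 + Doxy, in which GC-rich genes read high, held the highest values of MVK and DHCR7. Without it the log2 fold changes were -0.48 (MVK, adjusted p = 0.019) and -0.73 (DHCR7, adjusted p = 0.00012 by the edgeR test).

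The other sterol synthesis genes that fell were HMGCS1, MVD, IDI1, FDPS, FDFT1, MSMO1, HSD17B7 and ACAT2, with log2 fold changes between -0.55 (HMGCS1) and -0.28 (IDI1). Of the 5 that did not pass the test, TM7SF2 had only 37 to 87 counts per library, and 83.2% of the exon bases of CYP51A1 are shared with another annotated gene, so its counts are uncertain. ACAT2 is in the same position with 52.3% of its exon bases shared. The other 3 overlapped between libraries with and without Doxy: PMVK at 34.5 ± 2.6 and 32.9 ± 2.1 CPM, LSS at 88.6 ± 13 and 79.0 ± 2.4 CPM, and SC5D at 23.7 ± 2.5 and 22.6 ± 1.4 CPM (mean ± SD, n = 3). Beside the promoter letters, the 10 sterol synthesis genes with a window that fell held 2 to 5 CCAAT boxes in their richest window and the 5 that did not pass the test held 0 or 1. This split was noticed after the values were seen and was not tested, and it does not carry over to other members: MYLIP held 2 boxes and did not pass the test, while FADS1, SREBF1, SCAP and LPIN1 fell and held none.

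Of the 5 SREBP regulators 4 fell at 20% O2. INSIG1, itself a classical SREBP target whose product retains SCAP, was at 60.6, 60.3 and 60.2 CPM with Doxy and at 37.8, 38.6 and 40.2 CPM without it (log2 fold change -0.63 ± 0.05, adjusted p = 7.4e-06 by the edgeR quasi-likelihood test). INSIG2, a relative whose expression does not depend on SREBP, was at 12.4, 15.4 and 16.3 CPM with Doxy and at 16.3, 15.4 and 17.5 CPM without it, so the groups overlapped and it did not pass the test. SREBF1 was at 85.4, 60.6 and 53.3 CPM with Doxy and at 39.1, 38.6 and 36.4 CPM without it (-0.80 ± 0.20, adjusted p = 0.0097 by the same test). SREBF2 was at 151, 123 and 114 CPM with Doxy and at 96.5, 96.3 and 89.4 CPM without it (-0.46 ± 0.14, adjusted p = 0.024 by the same test). SCAP was at 101, 76.4 and 71.4 CPM with Doxy and at 58.5, 58.2 and 52.1 CPM without it (-0.56 ± 0.16, adjusted p = 0.019 by the same test). In SREBF1, SREBF2 and SCAP, replicate 1 with Doxy, 1 of the 3 libraries in which GC-rich genes read high, stood above its group. Without that library SREBF1 was at -0.59 (adjusted p = 0.028), while SREBF2 (-0.35, adjusted p = 0.068) and SCAP (-0.41, adjusted p = 0.054) no longer passed the edgeR test, and SREBF2 also lost its call without replicate 3 of 20% O2 wo Doxy (-0.44, adjusted p = 0.057). With each library's GC trend taken out the log2 fold changes were -0.52 for SREBF1, -0.29 for SREBF2 and -0.30 for SCAP, all at an adjusted p of 0.00049 or lower by the edgeR test.

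STARD4, a soluble carrier of cholesterol between membranes and an SREBP-2 target, was at 28.8, 31.7 and 37.3 CPM with Doxy and at 16.4, 17.8 and 19.8 CPM without it at 20% O2. Its log2 fold change of -0.86 ± 0.12 was the largest decrease after SCD (adjusted p = 0.00028 by the edgeR quasi-likelihood test). NPC1, which exports cholesterol from lysosomes, moved the other way, from 37.8, 37.8 and 36.2 CPM to 54.2, 55.8 and 51.7 CPM (0.53 ± 0.06, adjusted p = 7.6e-05 by the same test). NPC2, its soluble partner in the lysosome and no member, also rose at 20% O2 (0.85, adjusted p = 2.9e-06 by the same test). ABCA1, which loads cholesterol onto apolipoproteins and is a defining LXR target, rose from 12.7, 11.0 and 10.7 CPM to 16.8, 16.4 and 18.6 CPM (0.59 ± 0.10, adjusted p = 0.00091 by the same test). MYLIP, an LXR-induced ubiquitin ligase that degrades lipoprotein receptors, was low, at 2.43, 2.17 and 1.94 CPM with Doxy and at 2.02, 2.88 and 2.28 CPM without it, and the groups overlapped. ABCA1 and SREBF1, both known LXR targets, thus went in opposite directions.

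Of the 7 fatty acid genes 6 fell. SCD, stearoyl-CoA desaturase, which makes oleate and needs oxygen and iron, showed the largest decrease of all members, from 395, 394 and 407 CPM with Doxy to 208, 212 and 211 CPM without it at 20% O2 (log2 fold change -0.92 ± 0.05, adjusted p = 3.2e-07 by the edgeR quasi-likelihood test). ACACA, acetyl-CoA carboxylase, the committing step of the pathway, went from 190, 186 and 173 CPM to 147, 144 and 143 CPM (-0.34 ± 0.05, adjusted p = 0.00055 by the same test). FADS2, the delta-6 desaturase, went from 50.5, 42.3 and 40.6 CPM to 28.9, 31.7 and 27.5 CPM (-0.60 ± 0.13, adjusted p = 0.0049 by the same test). These 3 kept their calls without any single library. Without replicate 1 of 20% O2 + Doxy, its highest library, FADS2 was at -0.51 (adjusted p = 0.013 by the edgeR test). FADS1 also fell (-0.19), and ELOVL6, an elongase, was at 58.7 ± 2.1 CPM with Doxy and 58.2 ± 0.39 CPM without it (mean ± SD, n = 3) and did not pass the test.

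FASN, fatty acid synthase, was at 1529, 943 and 865 CPM with Doxy and at 664, 651 and 624 CPM without it (-0.78 ± 0.24, adjusted p = 0.027 by the edgeR quasi-likelihood test). Replicate 1 with Doxy, the library with high GC-rich genes, lay far above the other 2, and without it the log2 fold change of FASN was -0.50 (adjusted p = 0.095). Its call was also lost without replicate 1 (-0.80, adjusted p = 0.058), replicate 2 (-0.80, adjusted p = 0.057) or replicate 3 (-0.78, adjusted p = 0.066) of 20% O2 wo Doxy. After the GC correction the value was -0.43 (adjusted p = 0.00022 by the edgeR test). ACLY, which splits citrate into acetyl-CoA for both pathways, went from 483, 422 and 393 CPM to 357, 348 and 351 CPM (-0.30 ± 0.09, adjusted p = 0.027 by the edgeR test) and lost its call without replicate 1 (-0.22, adjusted p = 0.070) or replicate 2 (-0.32, adjusted p = 0.051) of 20% O2 + Doxy. LPIN1, a phosphatidate phosphatase of glycerolipid synthesis and an SREBP target, fell from 37.1, 37.4 and 35.3 CPM to 25.3, 25.7 and 26.4 CPM (-0.50 ± 0.05, adjusted p = 4.3e-05 by the same test).

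**Figure D3:**
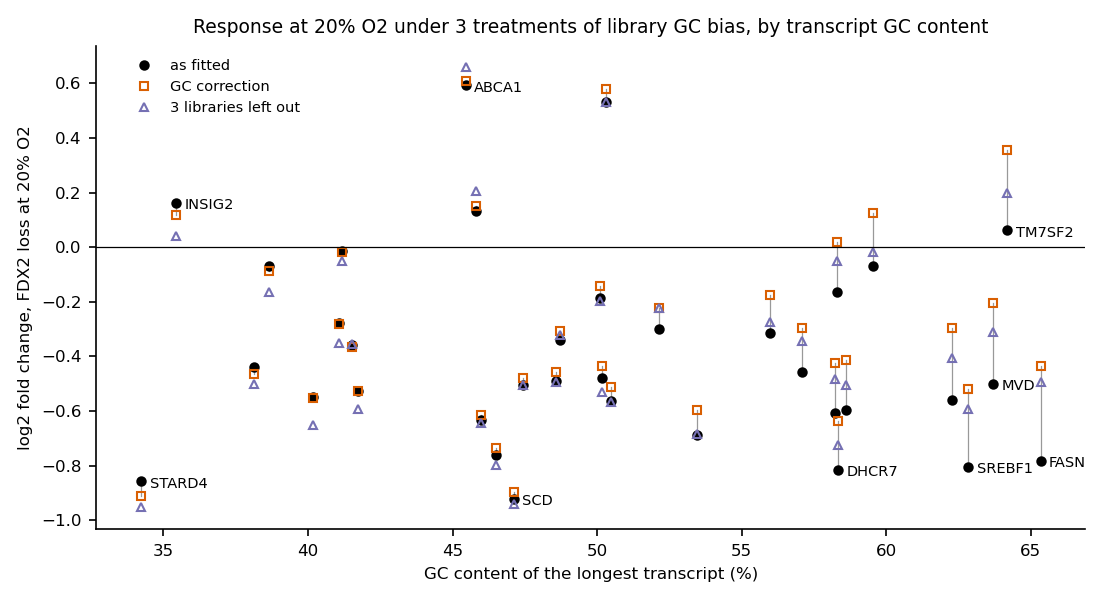
Log2 fold change after FDX2 loss at 20% O2 for the 35 tested members against the GC content of the longest transcript (%), as fitted (filled circles), with each library's GC trend taken out (squares, joined to the circles by lines) and without the 3 libraries in which GC-rich genes read high (triangles). The values of GC-rich genes such as FASN (-0.78 as fitted, -0.43 corrected) and SREBF1 (-0.80 and -0.52) shrink, while SCD (-0.92 and -0.90) and ABCA1 (0.59 and 0.61) hardly move.

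Of the 27 calls at 20% O2, 20 held without each library in turn and under 8 other ways of fitting at the same threshold. Besides SREBF2, SCAP, FASN and ACLY, calls were lost for IDI1 (between -0.31 and -0.25, adjusted p up to 0.106) without any library of the 6 except replicate 1 of 20% O2 + Doxy, for MVD without that replicate (-0.31, adjusted p = 0.079) or replicate 3 of 20% O2 wo Doxy (-0.43, adjusted p = 0.077), and for FDPS under the GC correction (-0.18, adjusted p = 0.064 by the edgeR quasi-likelihood test). No direction reversed.

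At 3% O2 few genes were called changed after FDX2 loss, among the members or over all tested genes. Of the 35 tested members 3 fell and 0 rose (8.57% called) in the edgeR quasi-likelihood test (Benjamini-Hochberg adjusted p under 0.05). Over all tested genes 7.31% were called, 4.2% higher and 3.11% lower. The median log2 fold change was -0.09 over the members and 0.04 over all tested genes. The 3 were SCD, ABCA1 and FADS1. None of the 18 sterol synthesis genes passed the test.

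SCD fell at 3% O2 as well, from 396, 391 and 422 CPM with Doxy to 286, 288 and 308 CPM without it (log2 fold change -0.46 ± 0.05, adjusted p = 0.00040 by the edgeR quasi-likelihood test), and kept its call without any single library. ABCA1 went from 10.5, 10.5 and 11.5 CPM to 7.25, 7.82 and 9.20 CPM, the opposite of its direction at 20% O2 (-0.42 ± 0.10, adjusted p = 0.031 by the same test). FADS1, the delta-5 desaturase, went from 214 ± 11 to 186 ± 5.1 CPM (mean ± SD, n = 3), with a log2 fold change of -0.20 ± 0.05 (adjusted p = 0.028 by the same test). The libraries of the compared conditions overlapped for none of these 3. Over all 35 tested members 1 was higher (LSS) and 12 lower without overlap at 3% O2, beside 13.4% of all tested genes higher and 11.2% lower. ABCA1 lost its call without any library of the comparison except replicate 3 of 3% O2 wo Doxy (-0.46 to -0.35, adjusted p up to 0.105), and FADS1 without replicate 1 (-0.18, adjusted p = 0.093), replicate 2 (-0.22, adjusted p = 0.071) or replicate 3 (-0.21, adjusted p = 0.064) of 3% O2 wo Doxy. Without the 3 libraries in which GC-rich genes read high ABCA1 was at -0.37 (adjusted p = 0.053 by the edgeR test) and not called. Its call was also lost with the replicate block (-0.42, adjusted p = 0.055) and with the compared libraries alone (-0.45, adjusted p = 0.12). FADS1 lost its call in those 2 fits and without a filter.

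DHCR7 was at 748, 752 and 920 CPM with Doxy and at 700, 731 and 660 CPM without it at 3% O2, a log2 fold change of -0.21 ± 0.09 that did not pass the test (adjusted p = 0.21 by the edgeR quasi-likelihood test). SQLE was at 74.6, 75.1 and 84.3 CPM with Doxy and at 70.2, 66.2 and 63.8 CPM without it (adjusted p = 0.057 by the same test), and EBP at 30.2, 35.2 and 36.4 CPM with Doxy and at 32.4, 34.9 and 34.7 CPM without it. NSDHL was at 41.5 ± 1.2 and 38.5 ± 3.5 CPM (mean ± SD, n = 3). SQLE and DHCR7 did not overlap between the conditions, as 24.6% of all tested genes did not in either direction, while EBP and NSDHL did. INSIG1 was at 51.9, 48.6 and 52.4 CPM with Doxy and at 42.4, 46.1 and 46.5 CPM without it (adjusted p = 0.067 by the same test), and SREBF1 at 52.9, 54.2 and 83.1 against 37.9, 51.0 and 43.5 CPM (adjusted p = 0.15 by the same test). With the GC correction 10 members were called lower at 3% O2, among them SREBF1 (-0.60, adjusted p = 3.6e-05 by the edgeR test), DHCR7 (-0.26), SQLE (-0.20) and INSIG1 (-0.15), and without the 3 libraries in which GC-rich genes read high 6 were, SREBF1 (-0.41) and INSIG1 (-0.20) included. Calls over all tested genes rose too. The GC correction called 1791 higher and 1462 lower of 16891. Without the 3 libraries 1284 were higher and 1326 lower of 17173, beside 709 and 526 of 16891 in the main fit. FASN, at 932, 963 and 1490 CPM with Doxy and at 887, 1418 and 1083 CPM without it, overlapped fully, with its highest value in each condition in the library in which GC-rich genes read high.

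**Figure D4:**
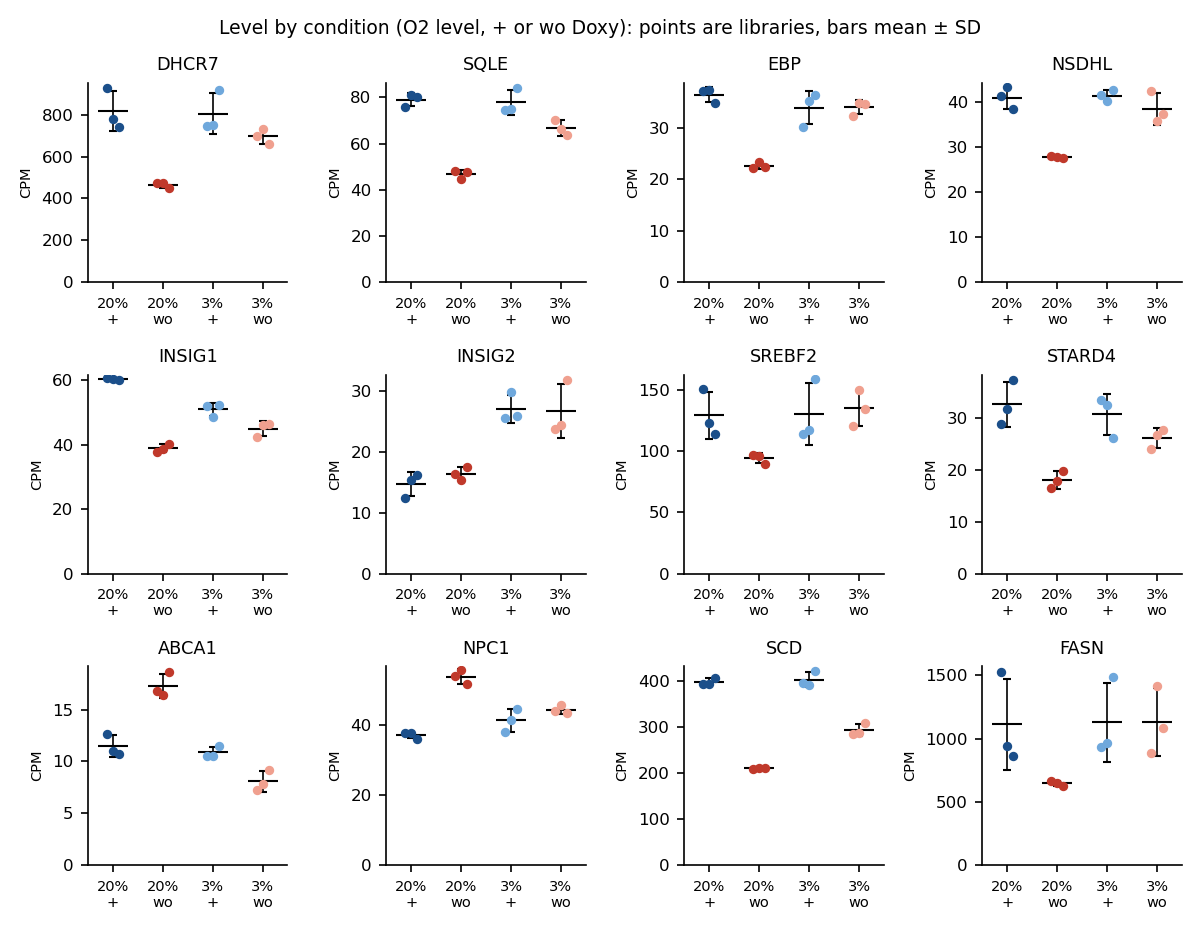
Level in CPM of 12 members in the 4 conditions (O2 level, + or wo Doxy), with 1 point per library and the mean ± SD (n = 3) as bars, on axes that start at 0. SCD, DHCR7, SQLE and EBP are lowest at 20% O2 wo Doxy, NPC1 and ABCA1 highest there, ABCA1 lowest at 3% O2 wo Doxy, and INSIG2 is high in both 3% O2 conditions.

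The difference between the responses to FDX2 loss at the 2 oxygen levels was tested directly, as an interaction over all 12 libraries. For 12 members the log2 fold change was higher (less negative or more positive) at 3% than at 20% O2, and for 2 it was lower, among 35 tested in the edgeR quasi-likelihood test (Benjamini-Hochberg adjusted p under 0.05). Over all tested genes 7.29% were called, 3.21% higher and 4.08% lower. The 12 were the sterol synthesis genes FDPS, FDFT1, SQLE, MSMO1, NSDHL, EBP, DHCR7 and ACAT2, with INSIG1, STARD4, SCD and LPIN1, and the 2 were NPC1 and ABCA1. The largest difference was that of ABCA1, -1.01 ± 0.14 (adjusted p = 0.0025), which rose after FDX2 loss at 20% O2 and fell at 3% O2. Its call at 3% O2 was lost in 5 of the 6 fits without 1 library. Among the called members EBP had the largest difference upward, 0.69 ± 0.10 (adjusted p = 0.0029 by the same test). The fatty acid genes reached 0.78 in a gene that was not called. The difference of SCD was 0.47 ± 0.07 (adjusted p = 0.0026 by the same test), about equal to its remaining decrease at 3% O2.

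FDPS, FDFT1, SQLE, EBP, INSIG1, SCD, NPC1 and ABCA1 kept this call without each of the 12 libraries in turn, with FDPS losing it under the GC correction (0.19, adjusted p = 0.23 by the edgeR quasi-likelihood test). Without single libraries 6 others lost it, while their log2 differences stayed between 0.33 and 0.71. DHCR7 lost it without replicate 3 of 20% O2 wo Doxy, replicate 1 or 2 of 3% O2 + Doxy or replicate 2 of 3% O2 wo Doxy (adjusted p up to 0.0593). NSDHL lost it without replicate 2 of 20% O2 + Doxy, any replicate of 20% O2 wo Doxy or replicate 2 of 3% O2 + Doxy (up to 0.0748). LPIN1 lost it without replicate 2 of 20% O2 + Doxy, replicate 1 or 2 of 20% O2 wo Doxy, replicate 1 of 3% O2 + Doxy or replicate 2 or 3 of 3% O2 wo Doxy (up to 0.062). The calls of MSMO1 (up to 0.113), ACAT2 (up to 0.128) and STARD4 (up to 0.149) were lost without any replicate of 20% O2 wo Doxy, without replicate 2 of 20% O2 + Doxy, replicate 1 or 2 of 3% O2 + Doxy or replicate 3 of 3% O2 wo Doxy, and in part without others. Under the replicate block the calls of DHCR7 (adjusted p = 0.059), MSMO1 (0.054), ACAT2 (0.055), LPIN1 (0.051) and STARD4 (0.095 by the edgeR test) were lost. Those of MSMO1, ACAT2, LPIN1 and STARD4 were lost without a filter. With at least 10 counts in every library ACAT2 and STARD4 lost theirs, and with DESeq2's size factors STARD4 did. The GC correction called 20 members higher and 2 lower, and the fit without the 3 libraries in which GC-rich genes read high called 21 higher and 2 lower. Over all tested genes the GC correction called 1475 higher and 1618 lower of 16891. Without the 3 libraries 1554 were higher and 1014 lower of 17173, beside 542 and 689 of 16891 in the main fit. Among the members added by both fits were FASN (0.32 and 0.53), SREBF2 (0.32 and 0.47), SCAP (0.22 and 0.49), MVK (0.34 and 0.51) and HMGCS1 (0.49 and 0.47), whereas SREBF1 was not called in either.

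**Figure D5:**
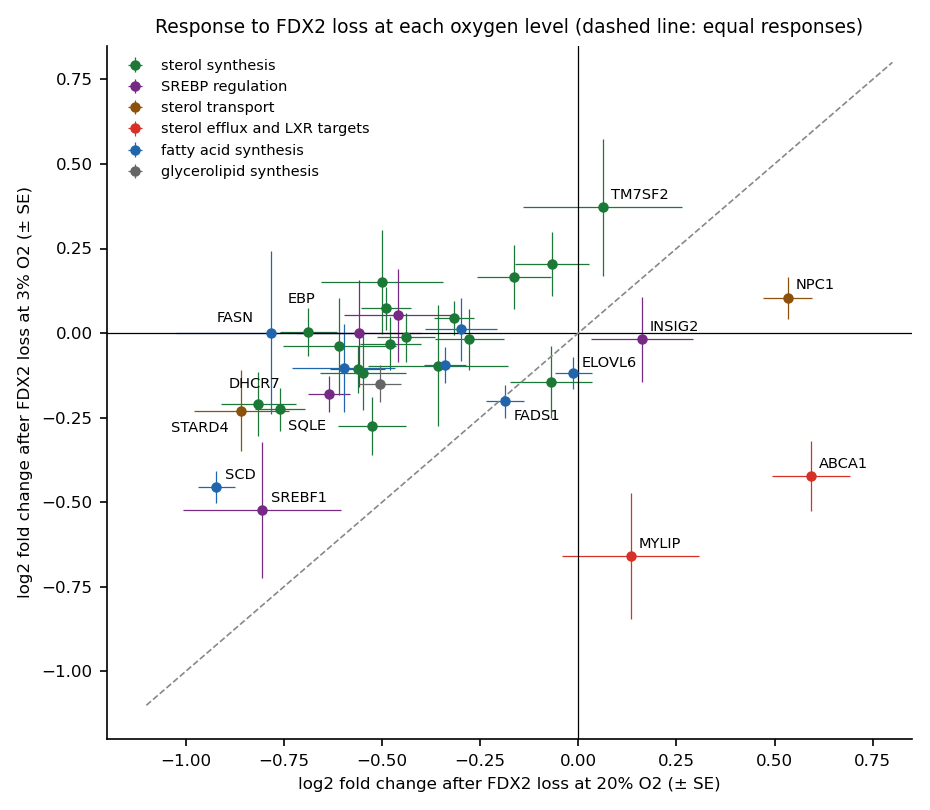
Log2 fold change (± SE) after FDX2 loss at 3% O2 against that at 20% O2 for each of the 35 tested members, coloured by gene group, with a dashed line where both are equal. Most genes lie left of the vertical zero line and near the horizontal one, SCD (-0.92 and -0.46) is lower at both oxygen levels, and ABCA1 (0.59 and -0.42) lies in the lower right.

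With FDX2 present, few genes were called changed at low oxygen, among the members or over all tested genes. Between 3% and 20% O2 with Doxy, 1 of the 35 tested members rose, INSIG2, and 1 fell, INSIG1, in the edgeR quasi-likelihood test (Benjamini-Hochberg adjusted p under 0.05), beside 2.02% of all tested genes, 1.63% higher and 0.385% lower. INSIG2, known as a hypoxia-inducible gene, rose from 12.4, 15.4 and 16.3 CPM to 25.5, 29.8 and 25.8 CPM (log2 fold change 0.88 ± 0.13, adjusted p = 0.0038 by the same test), and kept its call without any single library. INSIG1 went from 60.6, 60.3 and 60.2 CPM to 51.9, 48.6 and 52.4 CPM (-0.24 ± 0.05, adjusted p = 0.041 by the same test). Over the members 2 were higher and 4 lower without overlap between libraries, beside 15.4% of all tested genes, 8.83% higher and 6.61% lower. The call of INSIG1 was lost without any of the 6 libraries except replicate 1 of 20% O2 + Doxy, with log2 fold changes of -0.26 to -0.21 and adjusted p up to 0.15. SCD, at 399 ± 7.4 and 403 ± 17 CPM, and SQLE, at 79.1 ± 2.7 and 78.0 ± 5.5 CPM (mean ± SD, n = 3), did not pass the test.

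Without Doxy the set was higher at 3% than at 20% O2. Of the 35 tested members 23 were higher and 3 lower (NPC1, ABCA1 and MYLIP) in the edgeR quasi-likelihood test after Benjamini-Hochberg adjustment, beside 25.8% of all tested genes, 13.9% higher and 11.9% lower. The 20% O2 wo Doxy libraries are those also used for FDX2 loss at 20% O2, so the 2 comparisons are not independent. SCD, without Doxy, was at 208, 212 and 211 CPM at 20% O2 and at 286, 288 and 308 CPM at 3% O2 (log2 fold change 0.48 ± 0.05, adjusted p = 6.6e-05 by the same test). EBP rose from 22.2, 23.3 and 22.4 CPM to 32.4, 34.9 and 34.7 CPM, a log2 fold change of 0.59. DHCR7 rose from 465 ± 14 to 697 ± 36 CPM and FADS2 from 29.4 ± 2.1 to 49.7 ± 4.3 CPM (mean ± SD, n = 3), with log2 fold changes of 0.58 and 0.76. Without overlap between libraries 24 members were higher and 3 lower, beside 49.4% of all tested genes, 27.4% higher and 22% lower. INSIG2 again rose, to 23.7, 24.4 and 31.7 CPM (0.70 ± 0.13, adjusted p = 0.0030 by the same test).

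The 2 measured efflux and LXR targets fell in the same comparison. ABCA1 went from 16.8, 16.4 and 18.6 CPM to 7.25, 7.82 and 9.20 CPM (log2 fold change -1.09 ± 0.10, adjusted p = 4.8e-05 by the edgeR quasi-likelihood test), more than 2-fold. MYLIP went from 2.02, 2.88 and 2.28 CPM to 1.01, 0.873 and 0.936 CPM (-1.35 ± 0.18, adjusted p = 0.00053 by the same test), with only 22 to 91 counts per library over all conditions. MYLIP was also lower at 3% O2 + Doxy, at 1.52, 1.64 and 1.29 CPM, than in the 20% O2 + Doxy libraries without overlap, but this did not pass the test (adjusted p = 0.18 by the same test). ABCA1 and MYLIP kept their calls between the conditions without Doxy when each library was left out.

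Of the 26 calls between the conditions without Doxy, 13 held without each library in turn and under the other fits at the same threshold: FDFT1, SQLE, NSDHL, EBP, DHCR7, ACAT2, INSIG2, NPC1, ABCA1, MYLIP, SCD, ACACA and FADS2. Without replicate 1, 2 or 3 of 20% O2 wo Doxy 16, 16 and 17 members were called, and without replicate 2 of 3% O2 wo Doxy, in which GC-rich genes read high, 17. FASN, at 664, 651 and 624 CPM against 887, 1418 and 1083 CPM (0.80 ± 0.24, adjusted p = 0.032 by the edgeR quasi-likelihood test), lost its call without any library except replicate 1 of 3% O2 wo Doxy (0.61 to 0.84, adjusted p up to 0.13), and was at 0.38 after the GC correction (adjusted p = 0.0011 by the same test). MVK (0.43 to 0.53, up to 0.0967), MVD (0.37 to 0.55, up to 0.155), LSS (0.26 to 0.35, up to 0.112), SCAP (0.46 to 0.57, up to 0.107) and LPIN1 (0.14 to 0.18, up to 0.134) lost theirs without the same libraries as FASN. ACLY (0.26 to 0.33, up to 0.118) lost it without any of the 6. INSIG1 lost its call without replicate 1 or 2 of 20% O2 wo Doxy or replicate 2 or 3 of 3% O2 wo Doxy (up to 0.081). SREBF2 lost it without replicate 3 of 20% O2 wo Doxy or replicate 2 of 3% O2 wo Doxy (up to 0.076). Without single replicates of 20% O2 wo Doxy the adjusted p rose above 0.05 for MSMO1 (replicate 1 or 2, 0.28 and 0.29, up to 0.0625), HSD17B7 (replicate 2 or 3, 0.36 and 0.31, up to 0.0752) and STARD4 (replicate 1, 0.46, 0.0547). Over all libraries their log2 fold changes were 0.31, 0.36 and 0.54. The main fit used no pairs. As an alternative in this comparison the replicate numbers were treated as pairs, on correlations alone, since the labels give no pairing. With the replicate block over all 12 libraries the calls of MVK (adjusted p = 0.057), LSS (0.057), MVD (0.062), SCAP (0.064), LPIN1 (0.067), FASN (0.068) and ACLY (0.072) were lost. Their log2 fold changes were then 0.17 (LPIN1) to 0.81 (FASN). With the block on the compared libraries alone, HSD17B7 (0.33, adjusted p = 0.060) and LPIN1 (0.14, adjusted p = 0.090 by the edgeR test) lost theirs. FDPS, LSS and MVD lost theirs under the GC correction (0.15, 0.07 and 0.11).

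Other genes of the same pathways, 54 in all with 50 tested, were counted as well. After FDX2 loss at 20% O2, 7 were higher and 14 lower (42%, beside 35.3% of all tested genes), and at 3% O2 3 and 4 (14%, beside 7.31%), by the edgeR quasi-likelihood test. Between 3% and 20% O2, 1 was higher and 0 lower with Doxy (2%, beside 2.02%), and 7 and 7 without Doxy (28%, beside 25.8%). Their median log2 fold change at 20% O2 was -0.07. Those lower at 20% O2 included LBR (-0.70), a sterol reductase of the inner nuclear membrane, TMEM97 (-0.62), the sigma-2 receptor and an SREBP target, TECR (-0.65), of fatty acid elongation, and ACACB (-0.72), the mitochondrial acetyl-CoA carboxylase. Those higher included APOE (1.41, from 2 to 21 counts per library), an apolipoprotein and LXR target, NPC2 (0.85), ELOVL7 (0.78), an elongase, PLIN2 (0.58), which coats lipid droplets, and GPAM (0.52), the first enzyme of glycerolipid synthesis. At 3% O2 the largest changes called were those of ACSS2 (0.35), a cytosolic acetyl-CoA synthetase, and ACSL3 (-0.30), an acyl-CoA synthetase of lipid droplets. Of the 6 further genes of SREBP processing, 1 was called at 20% O2, the protease gene MBTPS1 (-0.21). LBR and TMEM97 had higher and NPC2, GPAM and PLIN2 lower responses to FDX2 loss at 3% than at 20% O2 (0.48, 0.37, -0.54, -0.65 and -0.27).

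Markers of cell division fell after FDX2 loss at both oxygen levels, more widely than the members at 3% O2. All 10 proliferation markers fell at 20% O2, beside 17.7% of all tested genes. Their median log2 fold change was -0.94, and their summed level was 2789 to 2866 CPM with Doxy and 1465 to 1479 CPM without it. At 3% O2 7 of the 10 fell (median -0.38), beside 3 of the 35 tested members (median -0.09) and 3.11% of all tested genes. The sums were then 2835 to 3014 CPM with Doxy and 2233 to 2301 CPM without it. Without Doxy 9 were higher at 3% than at 20% O2, beside 13.9% of all tested genes. None of the 10 was at 0. Their part in the levels of the lipid genes was not tested.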

How the data were processed

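Poly(A) RNA of 12 cultures was sequenced in paired-end mode (150 bp, DNBSEQ-T7), and the study describes the 3 libraries per condition as biological replicates. The authors aligned reads with STAR, counted them per gene with featureCounts (GRCh38) and deposited raw counts, not normalized; versions, annotation and strand setting are not given in the sources used here. The design text names DESeq2 for normalization, but the deposited values are whole, unnormalized counts. It also reports that a read file of replicates 1 and 2 of 20% O2 + Doxy was lost in transfer, while their counts are included. How reads in bases shared by overlapping or antisense genes were counted is therefore not known. The count model was fitted in edgeR 4.0.16 (R 4.3.3): filterByExpr (minimum count 10, minimum total count 15; 16891 of 32966 genes with a count), TMM, and a quasi-likelihood fit of 4 condition means to all 12 libraries (8 residual degrees of freedom), with Benjamini-Hochberg adjustment over all tested genes and a call at an adjusted p under 0.05. The steps were tested on simulated data. Totals were 24958386 to 34313637 counts per library. The SE is the absolute log2 fold change over the square root of the F statistic, so it includes the estimated spread between libraries. Limits for counts of 0 cover counting error only. All 58735 identifiers match GENCODE release 29 (GRCh38), used for exons and transcript GC content.

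The members and lists were chosen with earlier results of these data known. Per-library values are given for the 5 sterol synthesis and 5 fatty acid genes with the largest absolute log2 fold change over both FDX2-loss comparisons among those called in any comparison, and for all regulators, transport and efflux genes and LPIN1. Alternatives were DESeq2 1.42.0 size factors and Wald test, no filter, 10 counts in every library, a replicate block, a GC correction (lowess, span 0.3), the compared libraries alone, each library left out, a 2-fold minimum and an adjusted p under 0.01. Leaving out the 3 libraries with high GC-rich genes, and a replicate block on the compared libraries, were chosen after seeing the data. The main fit used no pairs, and the replicate block over all 12 libraries was run as an alternative on every comparison. Replicate numbers met the rule for pairs in 1 comparison, 3% against 20% O2 without Doxy. Deviations of same-numbered libraries correlated across genes at 0.247 to 0.363 there, by a rule of over 0.1 in all 3 pairs. The labels give no pairing. Differently numbered libraries correlated at -0.432 to 0.0756 there, and at up to 0.818 between 20% O2 + Doxy and 3% O2 + Doxy.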

Additional observations from a re-analysis of the deposited data

Results flagged for a closer look

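The response to FDX2 loss differed between 3% and 20% O2 in 14 members by the interaction term of the edgeR quasi-likelihood test (Benjamini-Hochberg adjusted). Of these 14 calls 7 held without each library in turn and under the other fits at the same threshold. As log2 fold change at 3% minus that at 20% O2, the sterol synthesis genes stood at 0.36 (FDPS), 0.56 (FDFT1), 0.53 (SQLE), 0.43 (MSMO1), 0.45 (NSDHL), 0.69 (EBP), 0.60 (DHCR7) and 0.45 (ACAT2). INSIG1 stood at 0.45, STARD4 at 0.63, SCD at 0.47 and LPIN1 at 0.36. NPC1 stood at -0.43 and ABCA1 at -1.01, and ABCA1 was the 1 member called in opposite directions at the 2 oxygen levels. The call of ABCA1 at 3% O2 was lost in 5 of the 6 fits without 1 library and without the 3 libraries in which GC-rich genes read high.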

How the results depend on the processing

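No call reversed under any alternative run. After FDX2 loss at 20% O2, 27 members were called, 22 to 26 without 1 library and 0 with a 2-fold minimum. At 3% O2, where 3 were called, the count was 5 with DESeq2's size factors, 5 with its Wald test, 6 with at least 10 counts in every library, 10 with the GC correction, 6 without the 3 libraries in which GC-rich genes read high, 1 with the compared libraries alone, 1 with the replicate block, 1 at an adjusted p under 0.01, 0 with a 2-fold minimum and 1 to 3 without 1 library. For 3% against 20% O2 with Doxy, where 2 were called, it was 1 without a filter, with the replicate block, with the compared libraries alone and at an adjusted p under 0.01, 4 with the GC correction, 0 with a 2-fold minimum and 1 to 2 without 1 library. Over all tested genes the GC correction then called 875 higher and 390 lower, beside 276 and 65 in the main fit. Without Doxy, 26 were called, 2 with a 2-fold minimum, 14 at an adjusted p under 0.01 and 16 to 25 without 1 library. For the difference of the responses, 14 were called, 9 with the replicate block, 22 with the GC correction, 23 without those 3 libraries, 1 with a 2-fold minimum, 6 at an adjusted p under 0.01 and 9 to 20 without 1 library. Calls over all tested genes rose under the GC correction and without those 3 libraries as well. For FDX2 loss at 3% O2 the GC correction called 1791 higher and 1462 lower. Without those 3 libraries 1284 were higher and 1326 lower, beside 709 and 526 in the main fit. For the difference of the responses the GC correction called 1475 higher and 1618 lower. Without those 3 libraries 1554 were higher and 1014 lower, beside 542 and 689. Fits without those 3 libraries rest on fewer samples. The causes of the other changes were not tested.

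For 3% against 20% O2 without Doxy, where the numbers met the rule for pairs, the replicate block gave 19 calls over all 12 libraries. It gave 25 over the compared libraries and 25 with the GC correction added, beside 26 in the main fit, which used no pairs. In the other pairs of conditions same-numbered libraries correlated at -0.772 to 0.629 and did not meet the rule. The replicate block over all 12 libraries was still run there as an alternative, with the counts given above. Low counts limit TM7SF2, MYLIP and ABCG1, and exon overlap limits CYP51A1 and ACAT2.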
